A study of Rattus norvegicus with 25 samples.

Results

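Regulators of G protein signalling (RGS proteins) were described in the striatum of adolescent rats whose dams had been food-restricted, given nicotine or left untreated during gestation. The genes were 7 RGS genes taken as a set for the striatum, Rgs2, Rgs4, Rgs7, Rgs8, Rgs9, Rgs10 and Rgs14, and a gene entered through every probe set that the platform annotation assigns to its symbol alone. This gave 6 genes with 1 probe set each, of 14506 genes with such a probe set on the array. The single probe set that names Rgs10 is shared with Tial1, so no level is given for Rgs10. All 6 probe sets passed the filter on low values, which kept the 14607 of 29214 probe sets whose mean over all arrays was at or above the median. The levels are RMA values on the log2 scale, where a difference of 1 stands for a doubling.

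The striata came from male Lister Hooded rats with no earlier experimental use, killed at postnatal day (PND) 35 to 42, with 1 Affymetrix rat gene 1.0st array per rat. The 10 Con-Pf rats were born to pair-fed dams, which were held to the daily food intake of Nic dams and could drink freely. The 7 Nic rats were born to dams whose drinking water contained nicotine from before mating and during pregnancy, and the 8 Con rats to dams that ate freely and drank plain water. The Con-Pf group served to separate nicotine from reduced food intake. The sources used here do not give the litter of each rat. There were fewer pair-fed dams than Con-Pf rats, so some Con-Pf rats shared a litter, and p-values measure the spread between rats and not between litters. Con-Pf 9 and Con-Pf 10 carry a Con-Pf title with a control description and were kept as Con-Pf. The study's list of animals, less the arrays removed, has the group sizes that the titles give, while its statistics section has those obtained with both arrays counted as Con.

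Any 2 of the 25 arrays correlated at between 0.967 and 0.997 over the probe sets kept. On the first principal component Con 3 and Con 5 had scores of -25.2 and -33.9, whereas the other 23 arrays lay between -11.6 and 9.63. All 11 striatal projection neuron markers on the array, among them Drd1, Drd2, Penk and Tac1, passed the filter. Their summed linear level was 47400 to 52200 in Con-Pf, 48600 to 51600 in Nic and 48200 to 52500 in Con. Of the 49 measured markers in 7 lists of cell types, 0 rose and 0 fell in any of the 3 comparisons (adjusted p under 0.05, limma).

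RGS proteins switch off signals from G protein-coupled receptors. A receptor loads its G protein alpha subunit with GTP, and the RGS domain speeds up the hydrolysis of that GTP. In the striatum dopamine, muscarinic acetylcholine, opioid, adenosine and cannabinoid receptors all signal through G proteins, and RGS proteins limit how long each signal lasts. The R4 subfamily (Rgs2, Rgs4, Rgs8) holds small proteins with little beyond the RGS domain. R7 proteins (Rgs7, Rgs9) pair with the beta subunit encoded by Gnb5 and are anchored at the membrane through the protein encoded by Rgs7bp. The R12 subfamily includes Rgs10 and Rgs14, and Rgs14 also carries Ras-binding domains and a GoLoco motif that binds inactive Gi alpha subunits.

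The stretches of 250 bases upstream of the RefSeq start (build GRCr8) of Rgs2 and Rgs4 are shown because Rgs2 is the member that changed and Rgs4 an R4 member whose groups overlapped, and both hold a core of the cAMP response element (CRE), here in capitals. Rgs2 lies on the minus strand, chr13:58352667-58352916, and so does Rgs4, chr13:84475885-84476134.
Rgs2: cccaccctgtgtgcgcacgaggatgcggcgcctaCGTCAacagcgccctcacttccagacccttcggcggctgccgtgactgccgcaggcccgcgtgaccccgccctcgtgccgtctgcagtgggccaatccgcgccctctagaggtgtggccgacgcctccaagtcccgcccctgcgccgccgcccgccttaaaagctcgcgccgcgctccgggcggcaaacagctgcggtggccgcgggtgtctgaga
Rgs4: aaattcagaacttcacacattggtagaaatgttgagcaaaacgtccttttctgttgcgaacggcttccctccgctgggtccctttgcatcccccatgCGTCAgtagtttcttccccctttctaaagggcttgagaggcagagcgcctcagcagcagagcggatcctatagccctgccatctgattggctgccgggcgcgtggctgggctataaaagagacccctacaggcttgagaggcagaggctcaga
The core was searched as TGACG on both strands and is read here as its reverse complement CGTCA, at bases 216 to 212 before the start of Rgs2 and 153 to 149 before that of Rgs4. It was present upstream of 2 of the 6 genes and in 18.2% of 33469 RefSeq promoter windows of the same length. The full element TGACGTCA, which contains the core, was present in 0 of the 6 (1.59% of all windows), and so was the CArG box (1.5% of all windows). A CCAAT box, searched as CCAAT on both strands, lay upstream of Rgs2, Rgs4, Rgs8 and Rgs9 (34.0% of all windows). GC content was 72.4% in the Rgs2 window and 54.4% in that of Rgs4.

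Rgs2 was the member that rose in the Con-Pf group, and it rose against both other groups. Its protein acts mainly on Gq alpha subunits, and the gene is known as one that neurons switch on with activity. The log2 level of Rgs2 had a lowest value of 10.80, a median of 10.99 and a highest value of 11.20 over the 10 Con-Pf arrays. Over the 7 Nic arrays the corresponding values were 10.36, 10.63 and 10.76, and over the 8 Con arrays they were 10.25, 10.37 and 10.63. Every Con-Pf array was thus above every Nic and every Con array, with a gap of 0.04 between the lowest Con-Pf array (Con-Pf 7) and the highest Nic array (Nic 5) and of 0.17 to the highest Con array (Con 7). Nic and Con overlapped.

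Rgs2 averaged 11.00 ± 0.11 in Con-Pf (SD, n = 10) and 10.39 ± 0.11 in Con (SD, n = 8), which left Rgs2 higher by 0.61 log2 units (limma, standard error 0.05, adjusted p = 2.06e-07). On the linear scale this is 1.53-fold, with a 95% interval of 1.41 to 1.65. It had the smallest p of all 14607 probe sets in this comparison, in which 1.26% of all probe sets had an adjusted p under 0.05 (1.00% as higher in Con-Pf). Groups with no overlap and Con-Pf the higher were found for 0.233% of probe sets. In whole tissue, more cells with Rgs2 RNA and more Rgs2 RNA per cell cannot be told apart.

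Against Nic (10.59 ± 0.13, SD, n = 7) Rgs2 in Con-Pf was higher by 0.40 log2 units (limma, standard error 0.06, adjusted p = 0.000501), which is 1.32-fold with a 95% interval of 1.22 to 1.43. Of all probe sets 0.185% were called in this comparison, 0.171% as higher in Con-Pf, and 0.0685% had groups that did not overlap with Con-Pf the higher. With the methods' t-test, and with the Benjamini-Hochberg adjustment that is added here and is not part of those methods, the adjusted p against Nic was 0.0507, just over the threshold of 0.05, and against Con it was 2.94e-05. At the threshold that the methods state, an unadjusted p under 0.01 with a log2 difference of at least 0.5, Rgs2 passed against Con (0.178% of all probe sets did) and not against Nic (0.0822%), where its p was 2.95e-05 and its difference 0.40. Between Nic and Con 0 of the 6 genes passed it (0.0137%). Con-Pf 9 and Con-Pf 10 had Rgs2 levels of 10.97 and 11.00, inside the range of the other Con-Pf arrays and above every Con array. With these arrays counted as Con, limma gave Rgs2 differences of 0.49 to Con (adjusted p = 0.0091) and 0.41 to Nic (adjusted p = 0.188). With them left out, the differences were 0.61 (adjusted p = 3.12e-06) and 0.41 (adjusted p = 0.00201).

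The Nic mean lay between the other means. Nic less Con was 0.21 log2 units (limma, standard error 0.06, 95% interval 0.08 to 0.33, adjusted p = 0.268), so the difference did not pass. Its unadjusted p of 0.00177 was 63rd in order, in a comparison where 16.2% of probe sets had an unadjusted p under 0.05 and 0% were called. Of the 7 Nic arrays, 4 were above the highest Con array, Con 7, and 6 were above the next highest, at 10.42. Without Con 7 the log2 fold change was 0.24 (adjusted p = 0.156 from limma). With each array left out it was 0.18 to 0.24, with adjusted p of 0.156 to 0.569 from limma. Without Con 3 and Con 5 it was 0.19 (adjusted p = 0.953 from limma). With Con-Pf 9 and Con-Pf 10 counted as Con it was 0.09 (adjusted p = 0.675 from limma). In order of Rgs2 level the groups were Con-Pf, Nic and Con, with Con-Pf apart from Nic by the test and Nic not apart from Con.

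**Figure D1:**
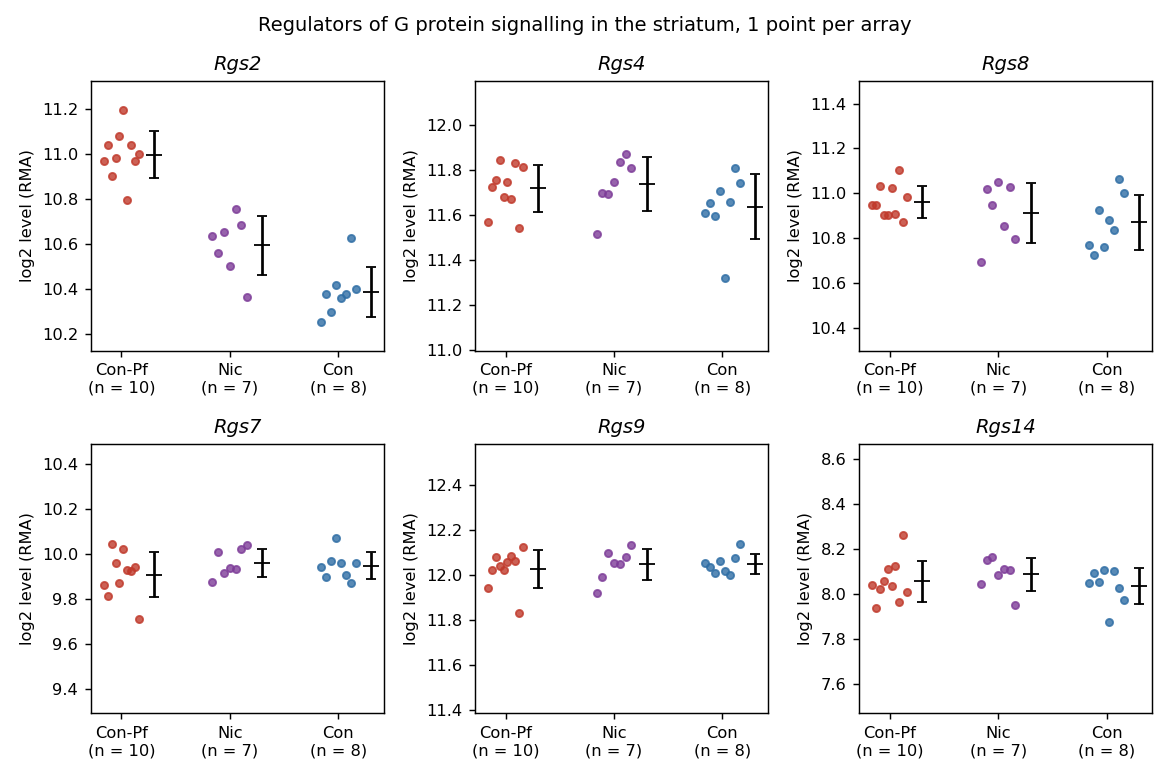
Log2 levels (RMA) of the 6 RGS genes on each array, in Con-Pf, Nic and Con from left to right, with the mean and SD as a bar beside the points; every panel spans the same height on the log2 scale. For Rgs2 all 10 Con-Pf points lie above all Nic and Con points, and in the other 5 panels the groups overlap.

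The other R4 members did not pass. Rgs4, which acts on Gi and Gq and whose protein is short-lived, ranged over 11.54 to 11.85 in Con-Pf (median 11.74), 11.52 to 11.87 in Nic (median 11.74) and 11.32 to 11.81 in Con (median 11.66). The groups overlapped over most of their range, and the lowest array of all was Con 5. The difference of Con-Pf to Con was 0.08 (95% interval -0.04 to 0.20, adjusted p = 0.400 from limma) and that to Nic was -0.02 (-0.14 to 0.10, adjusted p = 0.999). Without Con 5 the first of these was 0.04 and without Con 3 and Con 5 it was 0.02. Rgs8, found in cerebellar Purkinje cells and in striatum, ranged over 10.87 to 11.10 in Con-Pf (median 10.95), 10.70 to 11.05 in Nic (median 10.95) and 10.72 to 11.06 in Con (median 10.86). All 10 Con-Pf arrays were above the Con mean of Rgs8, yet only 1 was above the highest Con array. Its log2 fold change was 0.09 against Con (95% interval -0.01 to 0.20, adjusted p = 0.288 from limma) and 0.05 against Nic (-0.06 to 0.16, adjusted p = 0.999).

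The R7 members did not pass either. Rgs9, whose long splice form is a hallmark of striatal projection neurons and limits dopamine and opioid receptor signals, ranged over 11.83 to 12.12 in Con-Pf (median 12.05), 11.92 to 12.13 in Nic (median 12.05) and 12.0015 to 12.14 in Con (median 12.04). The array gives 1 value for its splice forms together. The difference of Con-Pf to Con was -0.02 (95% interval -0.10 to 0.05) and that to Nic was -0.02 (-0.10 to 0.06), with adjusted p of 0.735 and 0.999 from limma. Rgs9 had the smallest spread between rats of the 6, with an SD within groups of 0.07, lower than that of all but 7.15% of the probe sets kept. Rgs7, its brain-wide relative, ranged over 9.71 to 10.04 in Con-Pf (median 9.92), 9.87 to 10.04 in Nic (median 9.94) and 9.87 to 10.07 in Con (median 9.95). Of the Con-Pf arrays 3 were below the lowest Con array and none was above the highest, and the difference to Con was -0.04 (95% interval -0.12 to 0.04, adjusted p = 0.568 from limma). The difference of Rgs7 to Nic was -0.05 (-0.14 to 0.03, adjusted p = 0.999).

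Rgs14, of the R12 subfamily and best known from hippocampal area CA2, ranged over 7.94 to 8.26 in Con-Pf (median 8.04), 7.95 to 8.17 in Nic (median 8.11) and 7.88 to 8.11 in Con (median 8.05). Its highest array was Con-Pf 9 and its lowest Con 5. The log2 fold change of Con-Pf minus Con was 0.02 (95% interval -0.07 to 0.11, adjusted p = 0.781 from limma), and its sign turned without Con 3 and Con 5 (-0.0026) and with arrays centred on their medians (-0.0013). The difference to Nic was -0.03 (-0.12 to 0.06, adjusted p = 0.999).

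Between Con-Pf and Con, 1 of the 6 genes rose (1.00% of all probe sets), 0 fell (0.260%) and 5 did not pass, and 1 of 6 had an unadjusted p under 0.05 (22.0%). No overlap with Con-Pf the higher was seen for 1 of 6 (0.233%), and with Con-Pf the lower for 0 (0.0411%). Between Con-Pf and Nic, which share the Con-Pf arrays with the first comparison, 1 of 6 rose (0.171%), 0 fell (0.0137%) and 5 did not pass, and 1 of 6 had an unadjusted p under 0.05 (4.36%). No overlap was again seen for 1 of 6 with Con-Pf the higher (0.0685%) and for 0 with Con-Pf the lower (0.0137%). Between Nic and Con, limma called 0 of 6 and so did the methods' t-test, 1 of 6 (Rgs2) had an unadjusted p under 0.05 (16.2%), and 0 of 6 had groups without overlap (0.0274% with Nic the higher and 0% with Nic the lower). The differences of Nic to Con in the other 5 genes were -0.0021 (Rgs9) to 0.10 (Rgs4), with adjusted p of 0.394 to 0.981 from limma. That of Rgs7 (0.01) changed sign with the normalisation, and that of Rgs9 with the arrays or labels used.

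The median difference of the 6 genes was 0.05 log2 units for Con-Pf to Con, -0.02 for Con-Pf to Nic and 0.05 for Nic to Con, beside 0.02, -0.0082 and 0.02 over all probe sets kept. Against Con the 95% interval of Rgs2 (0.50 to 0.72) lay above those of the other 5, whose highest bound was 0.20 (Rgs4). Against Nic it also lay above them (0.29 to 0.52, highest bound of the others 0.16 for Rgs8), while between Nic and Con the interval of Rgs2 overlapped with those of other members. For Rgs4, Rgs7, Rgs8, Rgs9 and Rgs14 a change of the size seen for Rgs2 is therefore outside the interval in both comparisons with Con-Pf, whereas small changes are not.

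**Figure D2:**
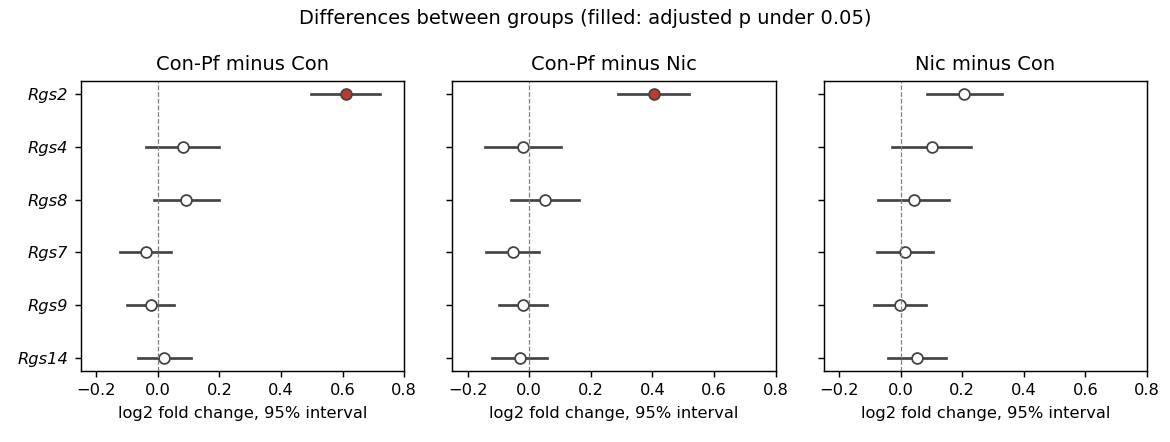
Log2 fold changes of the 6 RGS genes (points) with 95% intervals from limma (lines) for Con-Pf to Con, Con-Pf to Nic and Nic to Con; filled points have an adjusted p under 0.05. Only Rgs2 is filled, at 0.61 against Con and 0.40 against Nic, and the intervals of the other 5 include 0 in all 3 panels.

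How far the members varied together from rat to rat was described from the deviations of each array from its group mean, over all 25 arrays and with no test. Rgs4 and Rgs9 went together (Pearson r = 0.67, Spearman rho = 0.60, and r = 0.75 without Con 3 and Con 5). Both were low on Con-Pf 9 (11.54 and 11.83), Con-Pf 1 (11.57 and 11.94) and Nic 1 (11.52 and 11.92). Rgs14 and Rgs9 had r = -0.42 (rho = -0.29), with r = -0.24 without Con-Pf 9 and Nic 1 and r = -0.53 without Con 3 and Con 5. Rgs2 had values of r between -0.20 (Rgs7) and 0.29 (Rgs8) with the other 5. Both ends rested on Con 7 and Nic 7, without which they were -0.02 and 0.03. Rgs2 and Rgs4 had r = 0.26 (rho = 0.40), and r = 0.25 without Con 7 and Nic 7.

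The summed level of the striatal projection neuron markers, a list that holds none of the 6 genes, varied with 3 of them. The correlation of deviations was r = 0.69 for Rgs9 (rho = 0.62), 0.67 for Rgs4 (rho = 0.64) and 0.64 for Rgs8 (rho = 0.68). Without Con-Pf 9 and Con 8, the arrays whose marker sums deviated most, r was 0.54, 0.61 and 0.60. The sum was lowest in its group on Con-Pf 9 (47400) and on Nic 1 (48600). For Rgs2 r was 0.18, for Rgs7 it was 0.11 and for Rgs14 it was -0.26 (rho = -0.23), which became 0.05 without Con-Pf 9 and Con 8 and -0.45 without Con 3 and Con 5. All these values come from the same arrays, so that RNA quality and dissection are shared by both sides of each relation. Their part was not tested. The paper reports low measured RNA integrity for a sample that was kept, and holds a chip loading problem to be likely. It does not name the array of that sample.

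**Figure D3:**
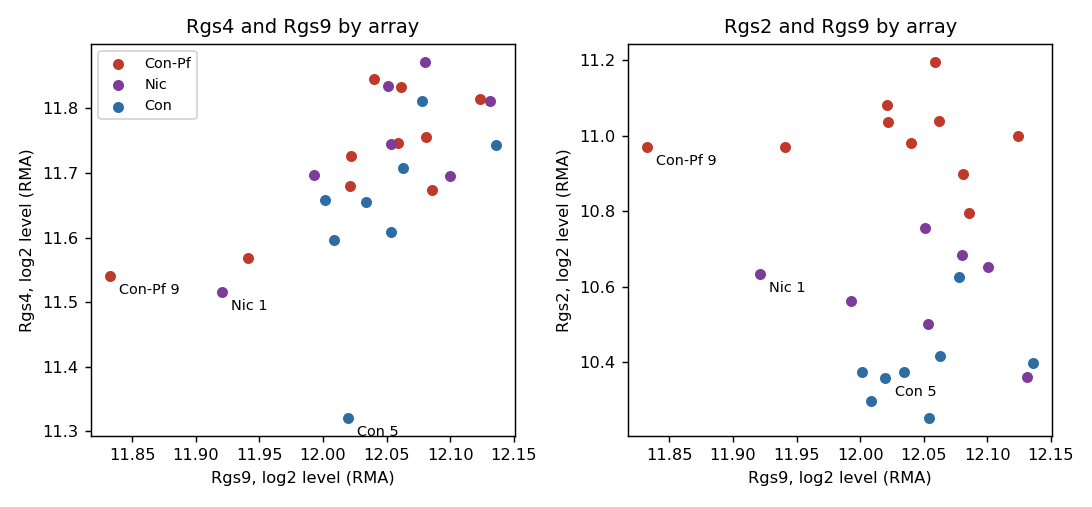
Log2 levels (RMA) of Rgs4 (left) and Rgs2 (right) against Rgs9, 1 point per array, coloured by group. Con-Pf 9 and Nic 1 are low for both Rgs9 and Rgs4, and Con 5 is low for Rgs4 alone, while in the right panel the Con-Pf points lie on top across the whole range of Rgs9.

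The genes most like each member were taken as those whose deviations had the highest Pearson r over the 25 arrays, 3 per member, as a description. They were drawn from the 8989 genes with a probe set kept, less the member itself. How high the largest of so many values would be without any relation was not tested. For Rgs2 they were Egr2, an activity-induced zinc finger transcription factor (r = 0.78), Dusp14, a MAP kinase phosphatase gene (0.78), and Pdp1, which encodes a phosphatase of pyruvate dehydrogenase (0.72). Without Con 7 and Nic 7, where Rgs2 deviated most, these values were 0.78, 0.76 and 0.66. Egr2 (log2 fold change 1.22 and 0.92), Dusp14 (0.66 and 0.51) and Pdp1 (0.34 and 0.25) also rose in Con-Pf against Con and against Nic (adjusted p from limma at most 4.00e-05 against Con and 0.0134 against Nic). For Rgs4 the genes were Spata2L, Thy1, a surface glycoprotein of neurons, and Inpp5j, all with r = 0.83, with 0.67 to 0.74 without Con 5 and Nic 1. Rgs9 was most like Rxrg, a retinoid receptor gene (r = 0.80), Slc8a2, a sodium and calcium exchanger gene (0.80), and Actn2, an actin-binding protein gene (0.79). Rgs8 was most like Gdpd5 (0.84), Rtkn (0.81) and Rpusd1 (0.80), and Rgs7 like Rnf39, Zfp507 and Wdr70 (0.79 to 0.80). Rgs14 was most like Crym, a thyroid hormone-binding protein gene (0.71), Ufd1 (0.69) and Ppp1r2 (0.68). Without Con-Pf 9 and Con 5 the values of Rgs14 were 0.61, 0.64 and 0.49. Those of Rgs9 were 0.69, 0.74 and 0.66 without Con-Pf 9 and Nic 1. Rgs8 had 0.75 to 0.82 without Con 7 and Nic 1, and Rgs7 0.72 to 0.74 without Con-Pf 10 and Con-Pf 3.

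Around the 6 genes, 6 lists with 90 genes of G protein signalling were examined, of which 68 were measured. Of these, 1 rose and 0 fell in Con-Pf compared with Con, near the 1.00% of all probe sets that rose, and the same gene was the 1 that rose compared with Nic (0.171% of all probe sets). Between Nic and Con limma called 0. The gene that rose was Gpr3, a receptor that activates Gs without a known need for a ligand. It averaged 9.22 ± 0.15 in Con-Pf (SD, n = 10), 8.76 ± 0.17 in Nic (SD, n = 7) and 8.52 ± 0.13 in Con (SD, n = 8). Its log2 fold change was 0.70 against Con and 0.47 against Nic (adjusted p = 4.16e-07 and 0.00100 from limma). The other 18 of 19 striatal receptors measured, Drd1, Drd2 and Adora2a among them, did not pass, and the median of the list was -0.04 to Con and -0.03 to Nic.

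Of the other RGS genes on the list of 14, 11 had a probe set and 7 passed the filter, and 0 of these 7 rose or fell in any comparison. Their median log2 fold change in Con-Pf against Con was 0.09, and 6 of 7 were higher. The smallest p were those of Rgs19 (log2 fold change 0.23, standard error 0.07, adjusted p = 0.0953 from limma), which encodes a Gi regulator also called GAIP, and Rgs16 (0.14, standard error 0.05, adjusted p = 0.108), an R4 member. In Con-Pf against Nic they had 0.04 and 0.04.

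The partners of the R7 members did not pass either. Rgs7bp had a log2 fold change of -0.08 in Con-Pf against Con (standard error 0.04, adjusted p = 0.248 from limma) and Gnb5 one of -0.02 (standard error 0.04, adjusted p = 0.702). Of 11 alpha subunit genes 0 passed, and those with the smallest p against Con were Gna13 (-0.15) and Gnaq, the main target of Rgs2 (-0.07, standard error 0.04, adjusted p = 0.288). Of 10 beta and gamma subunit genes 0 passed, with Gng12 (0.16) and Gng3 (0.19) at the smallest p. The median difference to Con was -0.05 for the 2 partners of R7 members, -0.03 for the alpha subunits and 0.08 for the beta and gamma subunits, beside 0.02 over all probe sets. Of 19 effectors and their targets 0 passed and 14 were lower in Con-Pf than in Con, with a median log2 fold change of -0.06. The smallest p among them were those of Adcy1, an adenylyl cyclase gene (-0.19, standard error 0.06, adjusted p = 0.10 from limma), and Itpr1, the receptor gene for the second messenger made downstream of Gq (-0.15, standard error 0.05, adjusted p = 0.125). Nic was also lower than Con for 13 of the 19 (median -0.02), with Itpr1 at -0.19 (adjusted p = 0.268 from limma). The SD of Itpr1 was 0.18 in Con, 0.08 in Con-Pf and 0.02 in Nic.

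**Figure D4:**
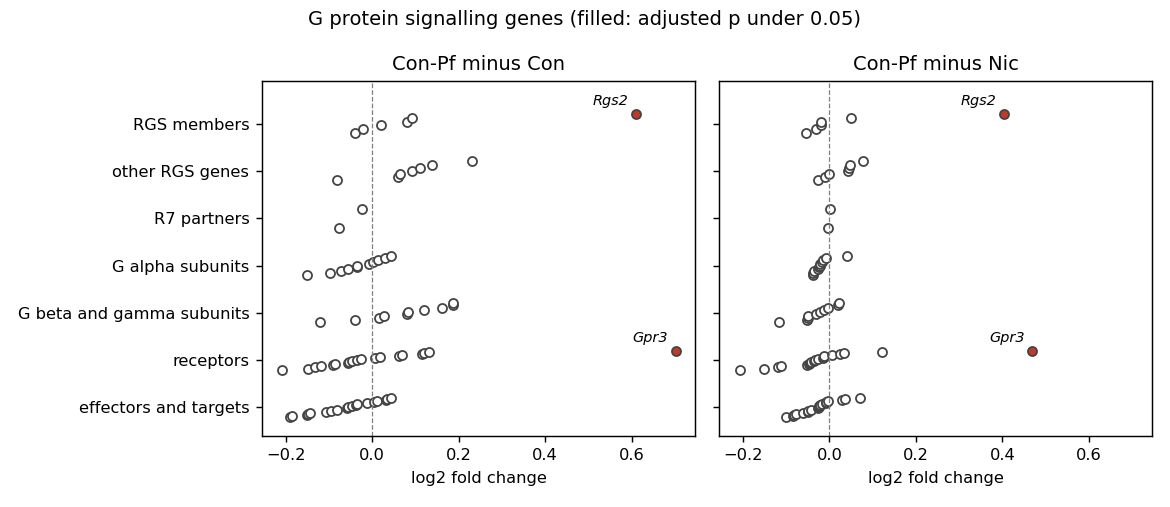
Log2 fold changes of the 6 RGS genes and of 6 lists of G protein signalling genes in Con-Pf minus Con (left) and Con-Pf minus Nic (right), 1 point per gene, filled where the adjusted p was under 0.05. Rgs2 and Gpr3 are the filled points in both panels, and the other points lie between -0.21 and 0.23.

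Cell type markers were set beside the rise of Rgs2, and 0 of them passed in any comparison. Against Con, 10 of 11 endothelial and mural markers were lower in Con-Pf (median -0.09), among them Abcc9, a potassium channel subunit gene of pericytes (-0.35, adjusted p = 0.0843 from limma), and Abcb1a, an efflux pump gene of the blood-brain barrier (-0.24, adjusted p = 0.121). Of the 7 astrocyte markers 5 were lower (median -0.10), of the 8 microglia markers 5 were higher (median 0.07), with C1qb at 0.20 (adjusted p = 0.0849), and of the 7 oligodendrocyte markers 6 were higher (median 0.05). The summed level of the endothelial and mural markers was 6760 to 7500 in Con-Pf, 6630 to 7790 in Nic and 6790 to 8220 in Con. Nic was also lower than Con for 8 of 11 endothelial and mural markers and 5 of 7 astrocyte markers. Against Nic, Con-Pf was lower for 7 of 11 and 3 of 7. Between rats, Abcc9 had an SD of 0.37 in Con, 0.12 in Con-Pf and 0.15 in Nic, and Abcb1a 0.28, 0.14 and 0.08. The highest sums of astrocyte markers were on Con 3 (29300) and Con 5 (28500), the arrays apart on the first principal component.

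Of the cortical and thalamic neuron markers, Slc17a7, Cck and Camk2n1 passed the filter, whereas Slc17a6, Neurod1, Neurod2, Neurod6 and Nrn1 were below it. Slc17a7, a glutamate transporter gene of cortical neurons, ranged over 7.19 to 8.55 in Con-Pf (median 7.59), 7.34 to 10.47 in Nic (median 8.82) and 7.50 to 10.25 in Con (median 7.93). Its difference was -1.18 to Nic and -0.63 to Con (limma, adjusted p = 0.576 and 0.300). Cck, a neuropeptide gene, had -0.53 and -0.19 in the same order. The groups overlapped for Slc17a7, and its highest levels were on Nic and Con arrays. Within groups the deviations of Rgs2 had r = -0.25 with those of Slc17a7 (-0.27 without Con 5 and Nic 2) and r = -0.20 with those of Cck (-0.06 without Nic 2 and Nic 5). The summed level of the 8 markers on the array, 5460 to 6270 in Con-Pf, 5790 to 7770 in Nic and 5630 to 6880 in Con, came mostly from Camk2n1 (a median of 88.0% over arrays), which is also expressed in striatum and had differences of -0.01 to Nic and -0.00016 to Con. Rgs2 had r = -0.16 with the sum of oligodendrocyte markers, which was 0.0029 without Con-Pf 1 and Con 7, and r = -0.24 with that of astrocyte markers (-0.19 without Con 3 and Con 4).

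The sum of choroid plexus markers ranged over 546 to 18300 in Con-Pf (median 1030), 513 to 3720 in Nic (median 909) and 565 to 14800 in Con (median 810). The part of cell composition in the difference of Rgs2 was not tested.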

How the data were processed

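Striatal RNA of 10 Con-Pf, 7 Nic and 8 Con rats was hybridised to 25 Affymetrix rat gene 1.0st arrays. The deposited log2 values were made by the authors with RMA, which corrects background, normalises quantiles between arrays and summarises each probe set. RMA and Affymetrix Expression Console 1.1 are named in the submitters' processing notes. The authors had removed 2 Con arrays and 1 Nic array. Of 29214 probe sets, 15310 carry 1 symbol, 323 several and 13581 none in the annotation used here. A probe set was kept if its mean over the arrays reached the median of such means (quantile 0.5), which left 14607.

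Groups were compared in R 4.3.3 by limma 3.58.1, with 1 linear model over the 3 groups, empirical Bayes moderation and Benjamini-Hochberg adjustment over all probe sets kept (threshold 0.05, two-sided). Intervals of 95% come from the same fit. The code was tested on simulated data. In lists, the probe set with the highest mean stood for a gene that had several, and no set test was run. Upstream sequences and coordinates are those of RefSeq, build GRCr8, matched by symbol for all 6 genes. For the array annotation, the genome build is not given in the sources. Python 3.11.15 with matplotlib 3.10.9 drew the figures.

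The 7 genes and all lists were chosen with earlier results of these data known, the rise of Rgs2 included. Named are all members, the called genes of each list (up to 4) or else the 2 with the smallest p, and the 3 genes most like each member. Alternatives were the methods' t-test, a pooled t-test, limma on 2 groups, trend with robust moderation, array weights, no filter, a filter at quantile 0.75, a further quantile normalisation, centring on array medians, 2 treatments of Con-Pf 9 and 10, leaving out Con 3 and Con 5, a replicate block and leaving out each array. The block's 21 arrays without the block were added after seeing the data. The number of arrays limits the precision.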

Additional observations from a re-analysis of the deposited data

Results flagged for a closer look

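Of the 18 sets of values tested, 6 genes in 3 groups, 2 held an array far from the others of its group, and chance alone would mark about 1 in 20. For Rgs2 in Con, Con 7 was at 10.63 and the next highest array at 10.42. For Rgs4 in Con, Con 5 was at 11.32 and the next lowest array at 11.60.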

How the results depend on the processing

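Rgs2 rose in Con-Pf against Con under all 14 other settings (log2 fold change 0.49 to 0.61) and with each array left out (0.59 to 0.64). Against Nic its call held in 12 of 14 settings and with each array left out (0.37 to 0.43). The count of members called against Nic became 0, from 1, with the methods' t-test for unequal variances (Rgs2 0.40, adjusted p = 0.0507). It also became 0 with Con-Pf 9 and 10 counted as Con (0.41, adjusted p = 0.188 from limma). With the pooled t-test Rgs2 stayed called (adjusted p = 0.0124). The number of members called with 1 array left out was 1 in both comparisons with Con-Pf and 0 in Nic against Con.

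Signs turned only for values near 0 that passed in no setting, and the cause was not tested. In Con-Pf against Con, Rgs14 had -0.0013 with arrays centred on their median, -0.018 with Con-Pf 9 and 10 as Con and -0.0026 without Con 3 and Con 5. With Con-Pf 9 and 10 as Con, Rgs7 had 0.0049 and Rgs9 0.0039 against Con, and Rgs9 had 0.012 in Nic against Con. Rgs7 in Nic against Con had -0.016 after a further quantile normalisation and -0.0145 with centring. With 1 array left out, the range was -0.0017 to 0.035 for Rgs14 in Con-Pf against Con, -0.058 to 0.0019 for Rgs4 and -0.041 to 0.0012 for Rgs9 in Con-Pf against Nic, and -0.016 to 0.019 for Rgs9 in Nic against Con.

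Replicate numbers 1 to 7 occur in all 3 groups, and the sources do not say that they pair rats. Correlations of deviations between same-numbered arrays were over 0.1 in 4 of 7 pairs of Con-Pf and Con. They were over 0.1 in 4 pairs of Con-Pf and Nic and in 2 of Nic and Con. In that order the correlations ranged over 0.02 to 0.18, -0.21 to 0.34 and -0.36 to 0.31. Arrays with different numbers were not compared in this way. With the replicate block on these 21 arrays, Rgs2 had 0.61 against Con (adjusted p = 0.000303 from limma) and 0.40 against Nic (0.0309), the number of members called was 1, 1 and 0, and Rgs9 in Nic against Con had 0.01. The same arrays without the block gave 0.01 for it as well (0.0102). Over all probe sets the calls against Con were 184 from limma and 66 with the methods' t-test, 84 with the pooled t-test, 99 with limma on 2 groups, 96 with no filter, 116 and 27 with Con-Pf 9 and 10 left out or as Con and 85 without Con 3 and Con 5. The share of higher probe sets at an unadjusted p under 0.05 in Nic against Con was 75.6%, and it was 53.4% after a further quantile normalisation and 45.1% with centring.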
